A study of Mus musculus with 5 samples.

Results

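The genes described here encode the machinery that makes RNA from nuclear genes, namely subunits of RNA polymerases I, II and III, subunits of the Mediator complex, TBP-associated factors (Taf genes) and general transcription factors (Gtf genes). They were chosen by symbol, as genes whose names begin with Polr1, Polr2, Polr3, Med, Taf, Gtf2 or Gtf3 followed where needed by a number, and where a gene had several probe sets the values are those of the brightest on average. The array measured 84 such genes of 12393 genes in all, comprising 5 Polr1, 11 Polr2, 8 Polr3, 27 Mediator, 15 Taf and 18 Gtf genes. The samples were 3 intestinal tumours of Apc1638N mice on the C57Bl6/J strain (tumours 16, 18 and 2) and 2 normal samples of wild-type mice of that strain (wild types 36 and 62). All animals were males of 8 months, housed without specific pathogens, and RNA came from epithelial cells collected by laser capture microdissection, a method that cuts chosen cells out of a tissue section. Apc1638N is a truncating allele of Apc, whose protein keeps Wnt signalling in check by helping to destroy beta-catenin, and the mutation is carried by every cell of the mouse. The labels name no section of intestine and do not tie samples to separate animals, so the p-values reflect only how these 5 samples vary, which may be technical.

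RNA polymerase I transcribes the large ribosomal RNAs, polymerase II transcribes messenger RNAs, and polymerase III transcribes transfer RNAs and other small RNAs including 5S ribosomal RNA. Each enzyme needs factors that place it at a promoter: the SL1 complex for polymerase I, TFIIA to TFIIH with TFIID for polymerase II, and TFIIIA, TFIIIC and TFIIIB for polymerase III. Mediator links DNA-bound activators to polymerase II. In the intestine, dividing crypt cells make many ribosomes, and Wnt signalling through the transcription factor Myc is known to raise genes for ribosome production.

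The deposited values were log2 signals, with array medians between 6.81 and 6.87. Across probe sets, arrays of the same group correlated at r between 0.983 and 0.991 and arrays of different groups at 0.909 to 0.937, while over the 84 genes the ranges were 0.981 to 0.995 and 0.903 to 0.958. Epithelial identity was present in both groups, with a mean log2 signal of Krt8 at 13.50 in tumours and 13.08 in wild type and Epcam at 11.01 and 11.49, and 2 of 11 epithelial markers rose and 1 fell. Several marker lists moved with the groups. Cell division genes rose for 13 of 18 and fell for 0, with a summed level of 13.01 to 13.22 in tumours and 11.62 to 11.98 in wild type, given as log2 of the summed signal. Absorptive enterocyte genes fell for 7 of 9 and rose for 0, with 11.38 to 13.20 against 15.30 to 15.51. T cell genes fell for 5 of 9 (9.70 to 9.97 against 11.42 to 11.83) and B and plasma cell genes for 2 of 5 (11.51 to 12.34 against 13.67 to 14.59). Of 9 fibroblast and matrix genes 1 rose (11.29 to 13.43 against 10.25 to 10.64, highest in tumour 18), and 1 rose and 0 fell both among 8 macrophage genes (11.05 to 11.81 against 10.66 to 11.23) and among 7 smooth muscle and endothelial genes (10.85 to 11.05 against 10.20 to 10.48). No marker list could be read as at 0, since the lowest gene signal on any array was 3.38. The difference between 3′ and 5′ control signal, a sign of RNA length, was 4.0 to 4.25 in tumours and 2.51 to 3.32 in wild type for beta-actin and 4.50 to 4.83 against 3.67 to 4.01 for Gapdh. The part of these marker and RNA length differences in the results below was not tested. In such samples, fewer cells of a type and less RNA per cell cannot be told apart.

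The comparison asked which genes of the transcription machinery differed between tumour and normal epithelium. Of 84 genes, 26 rose in tumours, 1 fell and 57 did not pass, at an adjusted p under 0.05 in limma. The shares were 31.0% higher against 11.3% of all genes, and 1 gene lower where 10.5% of all genes were lower. Counting both directions, 27 genes (32.1%) were called against 21.7% of all genes. The median log2 difference was 0.24, against 0.00 over all genes, and 64 of the 84 genes (76.2%) had a positive difference against 51.4% of all genes. Of the 27 called genes, 8 differed by 2-fold or more, as did 985 of the 2695 called genes of the array. The groups were fully separate for 69.0% of the 84 genes (50.7% of all genes), with 54 genes higher in tumours (27.0% of all genes were higher without overlap) and 4 lower (23.7% of all genes).

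**Figure D1:**
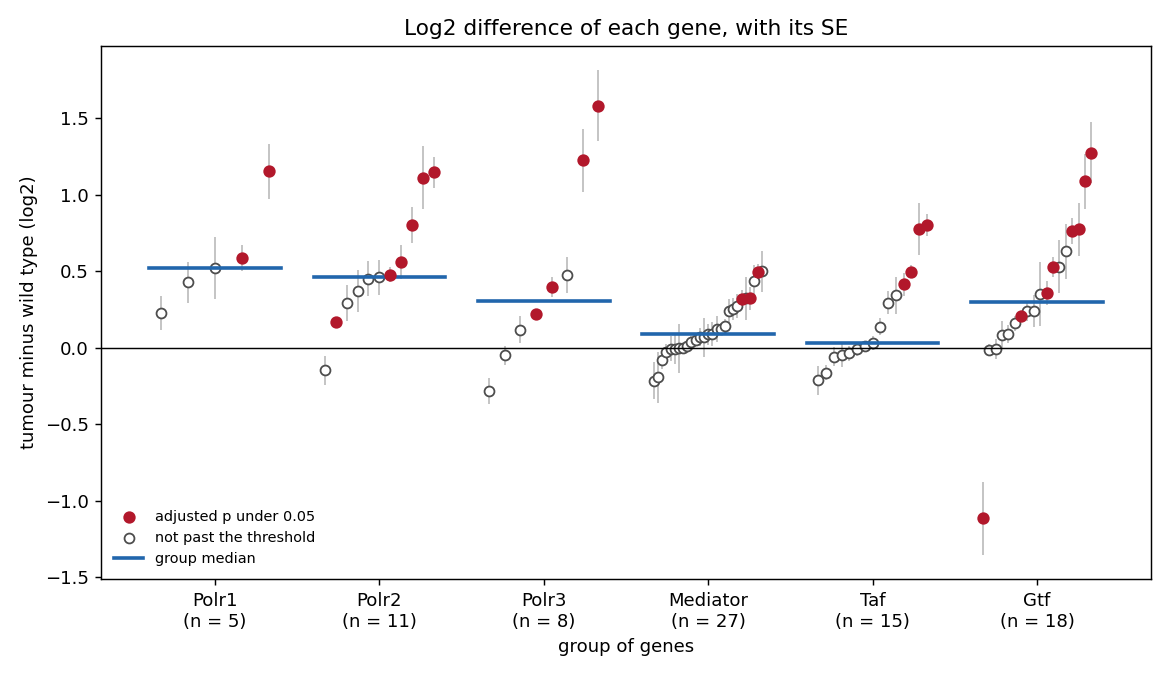
The log2 difference, tumour minus wild type, of each of the 84 genes (points) with its SE (bars), sorted within the 6 groups, where filled points passed an adjusted p of 0.05 and the thick line is the group median. The medians of the 3 polymerase groups lie at 0.31 or higher and those of the Mediator and Taf groups at 0.09 and 0.03, and Gtf2b is the single filled point below 0.

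These counts rested on few arrays and, for many genes, on probe sets that can bind more than 1 transcript. With 1 array left out in turn (tumours 16, 18 and 2, then wild types 36 and 62), 3, 9, 26, 2 and 0 of the 84 genes were called, beside 5.80%, 8.34%, 19.2%, 5.33% and 0% of all genes. Without wild type 62 the median log2 difference of the 84 genes was 0.25, against 0.00 over all genes. When probe sets with equal values on all arrays of a group were also left out, the same fits called 9, 18, 31, 11 and 8 of 77 genes (11.7%, 23.4%, 40.3%, 14.3% and 10.4%), beside 13.2%, 16.1%, 26.9%, 13.6% and 10.4% of all genes. In these fits Polr2i, Polr2c, Taf1c, Taf1d and Gtf2e2 were called in each of the 5. When probe sets named _a_at, _s_at, _x_at, _f_at or _g_at were left out, 10 of 71 measured genes rose and 1 fell (15.5% called, against 18.1% of all genes). The share that rose was then 14.1%, against 8.26% of all genes. Among the alternatives with the 5 arrays, Gtf2b, Gtf2e2, Gtf2f1, Gtf2i, Med16, Polr1e, Polr2b, Polr2c, Polr2i, Polr2j, Taf1c and Taf6 were called in each that measured them. Gtf2i, Polr2b, Polr2i and Taf1c had only probe sets with these name endings, so the fit that left those out could not test them. Calls of Gtf2h4, Gtf3c4, Polr1c, Polr2e, Polr3a, Polr3d, Polr3e, Polr3k, Taf10 and Taf1d were lost without the probe sets of shared or multiple transcripts, and those of Gtf3a and Med21 with _s_at and _x_at alone left out. In those fits Gtf3c4, Taf10, Gtf3a and Med21 kept the same probe set and values, and only the genes fitted beside them changed. Their reported adjusted p in limma was 0.0459, 0.0458, 0.0476 and 0.0486.

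**Figure D2:**
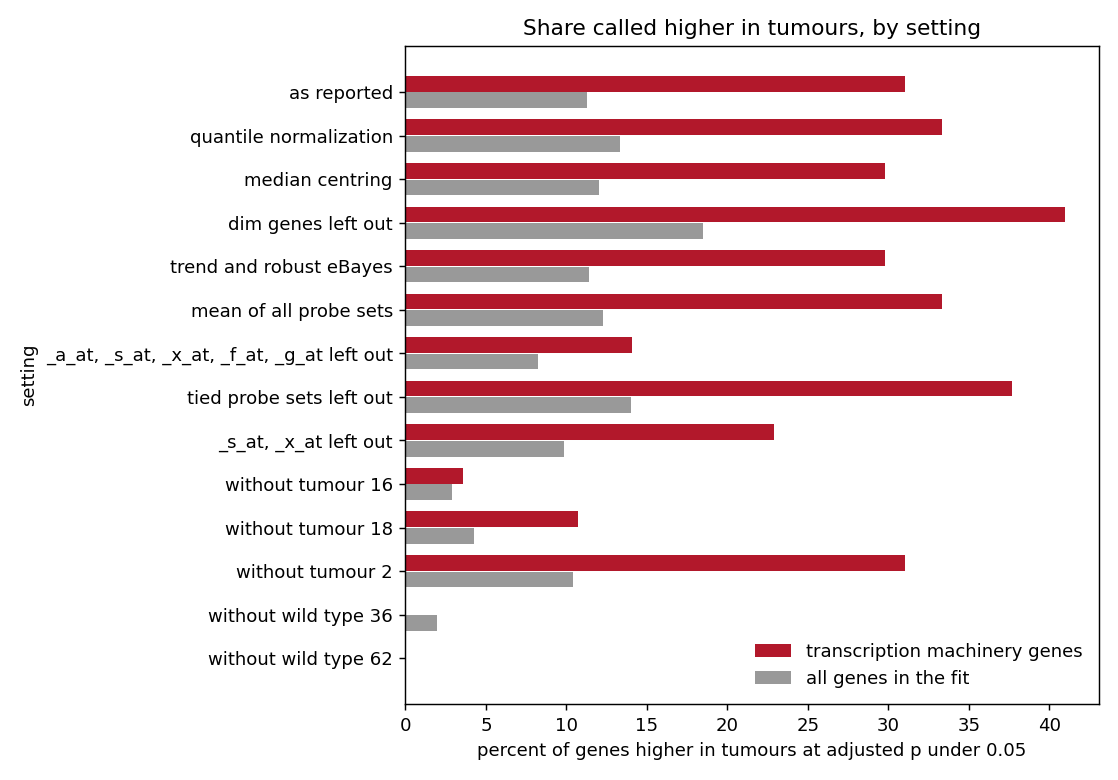
Percent of genes called higher in tumours at an adjusted p under 0.05 (x axis) among the transcription machinery genes and among all genes in the same fit, for the reported setting and each alternative (y axis). The share is 31.0% as reported, 14.1% without the probe sets of shared or multiple transcripts, and 0% without wild type 36 or without wild type 62.

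Among the polymerase I genes, Polr1e and Polr1c rose and the other 3 did not pass (40% called, against 21.7% of all genes). The 5 had positive differences with no overlap between groups. Of all genes, 51.4% had a positive difference and 27.0% were higher in tumours without overlap. The median difference of the group was 0.52. Polr1e, a subunit of polymerase I alone, read 7.07, 7.21 and 6.68 in tumours 16, 18 and 2 and 5.77 and 5.90 in wild types 36 and 62. Each tumour exceeded both wild types by more than the spread within either group (log2 difference 1.15, SE 0.18, adjusted p = 0.0213). Its wild-type mean was under the 25th percentile of signals on every array, so no fold is given. Polr1c, a subunit that polymerases I and III share, read 8.36, 8.14 and 8.30 against 7.74 and 7.63 (log2 difference 0.58, SE 0.08, adjusted p = 0.0189). In its other probe set Polr1c differed by -0.02 (adjusted p = 0.823 over probe sets). The catalytic subunit gene Polr1a was higher in each tumour, least so in tumour 2, at 8.04, 8.07 and 7.51 against 7.29 and 7.42 (log2 difference 0.52, SE 0.20, adjusted p = 0.157). Polr1b, the second largest subunit, read 7.54, 7.72 and 7.40 against 7.27 and 7.38, without overlap (log2 difference 0.22, SE 0.11, adjusted p = 0.237). Polr1d, the partner of Polr1c in polymerases I and III, differed by 0.43 with an adjusted p of 0.103.

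Of the polymerase II genes, 6 of 11 rose, 0 fell and 5 did not pass (54.5% called, against 21.7% of all genes). The median difference was 0.46. Polr2i, a small subunit at the edge of the enzyme, read 9.17, 9.18 and 8.93 in tumours and 8.01 and 7.88 in wild type, a 2.21-fold rise (log2 difference 1.15, SE 0.10, adjusted p = 0.00812). The second largest subunit, Polr2b, forms the active centre with Polr2a and read 9.96, 10.03 and 9.54 against 8.54 and 8.93 (log2 difference 1.11, SE 0.21, adjusted p = 0.0311). Tumour 2 was the lowest tumour for Polr2b and lay above both wild types. Polr2j read 8.93, 9.05 and 8.70 against 8.08 and 8.11 (log2 difference 0.80, SE 0.12, adjusted p = 0.0194), and its assembly partner Polr2c rose by 0.47 (SE 0.05, adjusted p = 0.00996), with little spread in either group. Polr2a, the largest subunit, whose tail carries the phosphorylation marks of transcription, read 9.18, 9.12 and 9.45 against 8.79 and 8.82. Tumours and wild types of Polr2a did not overlap, but the difference did not pass (log2 difference 0.45, SE 0.11, adjusted p = 0.0621), and its other probe set differed by -0.02. Of the subunits that the 3 polymerases share, Polr2e read 8.48, 8.69 and 8.36 against 7.98 and 7.93 (log2 difference 0.56, SE 0.11, adjusted p = 0.0346) and Polr2f rose by 0.17 (SE 0.03, adjusted p = 0.0383), while Polr2h differed by 0.37 without passing. The call of Polr2f in its probe set of highest mean was lost in 5 of 8 alternatives with the same arrays and in each fit without 1 array. In its other probe set Polr2f rose by 0.93 (adjusted p = 0.0142 over probe sets). Polr2e differed by 0.03 in its other probe set (adjusted p = 0.794 over probe sets). The genes of the stalk, Polr2d and Polr2g, differed by 0.46 and 0.29 (adjusted p = 0.0580 and 0.168). Polr2m, which encodes a protein that binds polymerase II rather than a core subunit, overlapped between groups and differed by -0.15.

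Polymerase III held the largest rise of all 84 genes. Polr3k, a small subunit that takes part in RNA cleavage and in termination, read 9.16, 9.14 and 8.61 in tumours and 7.58 and 7.20 in wild type, a 2.99-fold rise (log2 difference 1.58, SE 0.23, adjusted p = 0.0192). Its 4 other probe sets differed by 0.47, 0.10, 0.05 and -0.11, of which 0.47 passed (adjusted p = 0.0188 over probe sets). Polr3a, the catalytic subunit, read 8.26, 8.32 and 7.77 against 6.78 and 7.01, a 2.34-fold rise (log2 difference 1.22, SE 0.20, adjusted p = 0.0247). For both genes tumour 2 was the lowest tumour and still stood above both wild types. In its other probe set Polr3a differed by 0.14 (adjusted p = 0.432 over probe sets). The paired subunits Polr3d and Polr3e rose by less. Polr3e read 7.85, 7.69 and 7.71 against 7.32 and 7.39 (log2 difference 0.39, SE 0.06, adjusted p = 0.0236), and Polr3d read 7.78, 7.81 and 7.79 against 7.60 and 7.55 (log2 difference 0.22, SE 0.04, adjusted p = 0.0230). The call of Polr3d was lost in 4 of 8 alternatives with the same arrays, quantile normalization and median centring among them. Polr3d and Polr3e differed by 0.10 and 0.13 in their other probe sets (adjusted p = 0.360 and 0.30 over probe sets). The 3 subunits of the initiation subcomplex did not pass, namely Polr3g (0.47, adjusted p = 0.0616), Polr3f (0.12, 0.410) and Polr3c (-0.28, 0.0872). Polr3c was lower in each tumour, at 6.34, 6.36 and 6.37 against 6.51 and 6.76. Polr3gl, a paralogue of Polr3g, differed by -0.05 with equal values in both wild types, and in wild type Polr3g, Polr3f and Polr3gl were dim, with means under that 25th percentile. In all, 4 of 8 polymerase III genes rose and 0 fell (50% called, against 21.7% of all genes), with a median of 0.31. Without the probe sets of shared or multiple transcripts 0 of 8 were called in limma, against 18.1% of all genes. In that fit 2 of 8 were at an unadjusted p under 0.05, as were 3553 of all 10529 genes.

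**Figure D3:**
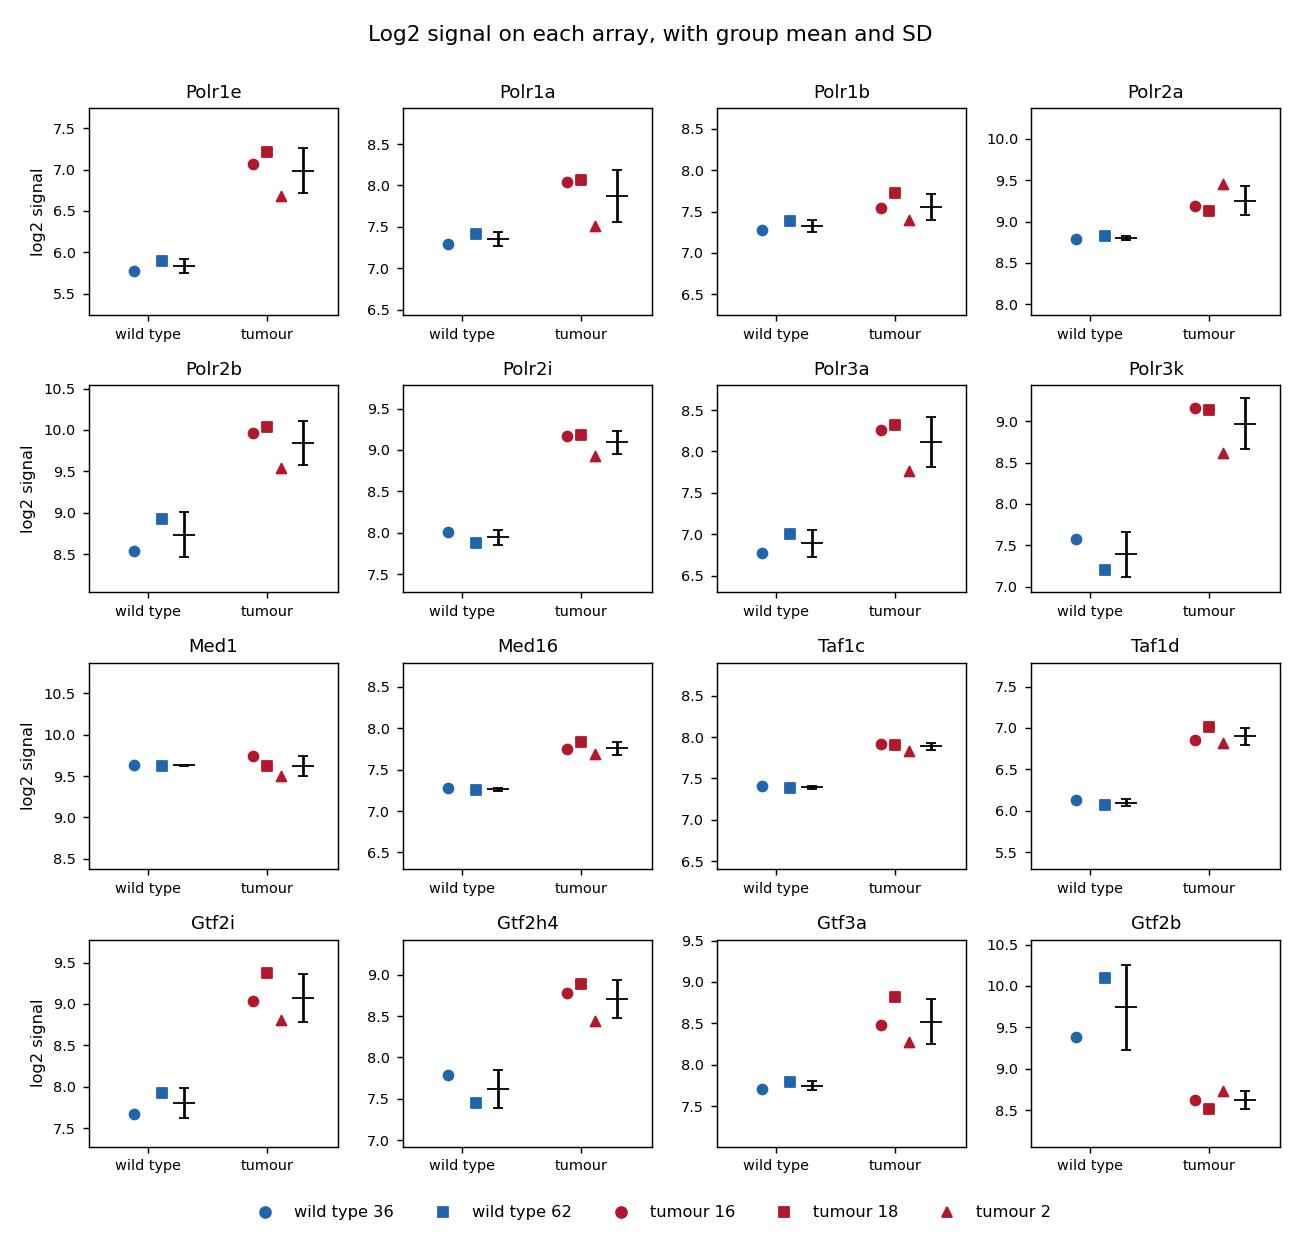
Log2 signal (y axis, the same height of scale in each panel) on every array for 16 genes, with the 2 wild types and 3 tumours as separate symbols and the mean and SD beside each group. Tumour 2 is the tumour nearest to wild type for Polr1e, Polr2b, Polr3a and Polr3k, Med1 overlaps, and Gtf2b is lower in each tumour with its wild types far apart.

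Of 27 Mediator genes, 3 rose, 0 fell and 24 did not pass (11.1% called, against 21.7% of all genes), with a median of 0.09. The share that rose was 11.1%, near the 11.3% of all genes. The groups overlapped for 12 and were fully separate for 55.6% (50.7% of all genes). Of the separate genes, 15 were higher in tumours and 0 lower, where 27.0% of all genes were higher without overlap and 23.7% lower. The called genes were the tail subunits Med16 and Med25 and the middle subunit Med21. Med16 read 7.75, 7.84 and 7.69 in tumours and 7.28 and 7.25 in wild type (log2 difference 0.49, SE 0.06, adjusted p = 0.0116). Med25, which activators bind, read 9.04, 8.92 and 8.87 against 8.65 and 8.6 (log2 difference 0.31, SE 0.06, adjusted p = 0.0355). Med21 read 5.67, 5.78 and 5.87 against 5.41 and 5.50 (log2 difference 0.32, SE 0.07, adjusted p = 0.0486), dim in both groups by the same measure. The call of Med21 was lost with median centring and that of Med25 with trend and robust eBayes. In the head module 0 of 7 genes were called in limma, against 21.7% of all genes. Of the 7, 3 were at an unadjusted p under 0.05, as were 4505 of all 12393 genes. Med20 had the largest difference of this module (0.50, adjusted p = 0.0693), with -0.25 in its other probe set. In the middle module Med31 differed by 0.44 (adjusted p = 0.0536) and Med10 by 0.32 (0.191). Med1, the subunit bound by nuclear receptors, read 9.74, 9.62 and 9.5 in tumours and 9.63 and 9.62 in wild type, so that the groups overlapped (log2 difference -0.01, SE 0.08). The other 5 probe sets of Med1 differed by -0.16 to 0.18 and did not pass. The scaffold gene Med14 read 6.46, 6.44 and 6.37 against 6.46 and 6.82 (log2 difference -0.22, SE 0.12, adjusted p = 0.288), with overlapping groups. Of the kinase module, Med12 read 7.93, 7.79 and 7.91 against 7.70 and 7.51 (log2 difference 0.27, SE 0.08, adjusted p = 0.0888) and Med12l differed by 0.12 (adjusted p = 0.106), both without overlap. Med29 did not pass in its probe set of highest mean (0.14, adjusted p = 0.0862) and passed in the other (0.28, adjusted p = 0.0359 over probe sets). The remaining Mediator genes differed by between -0.20 (Med8) and 0.25 (Med11).

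The Taf genes belong to SL1, TFIID and SAGA. Of 15, 4 rose, 0 fell and 11 did not pass (26.7% called, against 21.7% of all genes), and the median was 0.03. The share that rose was 26.7%, against 11.3% of all genes. Of the 4 SL1 genes, which serve polymerase I, Taf1c and Taf1d rose. Taf1c read 7.92, 7.91 and 7.84 in tumours and 7.41 and 7.38 in wild type (log2 difference 0.50, SE 0.04, adjusted p = 0.00713), with the smallest adjusted p of the 84 genes. Taf1d read 6.86, 7.01 and 6.82 against 6.13 and 6.07, a 1.74-fold rise (log2 difference 0.80, SE 0.07, adjusted p = 0.00813), while its 4 other probe sets differed by 0.03 to 0.27 and did not pass. Taf1a differed by 0.34 (adjusted p = 0.132), and Taf1b, dim on every array, by -0.06. Of 9 TFIID genes, Taf10 and Taf6 rose. Taf10, a histone-fold subunit also found in the SAGA coactivator, read 10.10, 10.06 and 10.55 against 9.48 and 9.44, highest in tumour 2 (log2 difference 0.77, SE 0.17, adjusted p = 0.0458). In its other probe set Taf10 differed by -0.05. Taf6 read 8.57, 8.67 and 8.50 against 8.23 and 8.10 (log2 difference 0.41, SE 0.07, adjusted p = 0.0287). Taf4, Taf7, Taf8 and Taf12 had differences from -0.05 to 0.03 with overlapping groups, and Taf11 differed by 0.14 (adjusted p = 0.166). Taf13 and the germ-cell paralogue Taf7l were lower in each tumour without passing (-0.21 and -0.16, adjusted p = 0.195 and 0.0923). The SAGA paralogues Taf5l and Taf6l differed by -0.04 and 0.29 and did not pass (adjusted p = 0.642 and 0.0637).

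The Gtf genes held the single fall. Of 18, 7 rose, 1 fell and 10 did not pass (44.4% called, against 21.7% of all genes), with a median of 0.30. Gtf2b, which encodes TFIIB, the factor that brings polymerase II to the promoter and helps set the start site, read 8.62, 8.51 and 8.73 in tumours and 9.38 and 10.10 in wild type. Each tumour lay below both wild types, which themselves lay farther apart than the tumours did. Gtf2b fell by 1.12 (SE 0.24, adjusted p = 0.0422), a 2.17-fold difference, with a range of -1.48 to -0.76 when each array was left out. The call of Gtf2b was lost without tumour 16, without tumour 18 and without tumour 2. With either wild type left out, a single wild type remained, whose spread could not be measured. Those fits therefore cannot show that the call holds without a given wild type. Gtf2i, a signal-responsive factor of the TFII-I family, had the largest rise of the group and read 9.04, 9.38 and 8.81 against 7.67 and 7.93 (log2 difference 1.27, SE 0.20, adjusted p = 0.0216). Its 3 other probe sets differed by 0.07, -0.20 and -0.10, none past the threshold over probe sets. The related Gtf2ird1 and Gtf2ird2 differed by 0.24 and 0.53 (adjusted p = 0.0730 and 0.106). Gtf2h4, a core subunit of the TFIIH helicase complex, read 8.78, 8.89 and 8.44 against 7.79 and 7.45 (log2 difference 1.09, SE 0.18, adjusted p = 0.0246), with other probe sets at 0.80, 0.64 and 0.07 (adjusted p = 0.0537, 0.0412 and 0.363 over probe sets).

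The other factors of polymerase II initiation gave a mixed picture. Gtf2e2, a subunit of TFIIE, rose by 0.76 (SE 0.09, adjusted p = 0.0116) and Gtf2f1, the large subunit of TFIIF, by 0.53 (SE 0.07, adjusted p = 0.0150). In its other probe set Gtf2f1 differed by 0.26 (adjusted p = 0.155 over probe sets). Gtf2f2, the small subunit of TFIIF, was dim and differed by 0.24. Gtf2h1, Gtf2a1 and Gtf2a1l overlapped between groups and differed by -0.01, 0.08 and -0.01, each with equal values on all arrays of 1 group, and Gtf2h3 differed by 0.16 (adjusted p = 0.0867). Among the 6 genes of TFIIIA and TFIIIC, which recruit polymerase III, 3 rose and 0 fell (50% called, against 21.7% of all genes). Gtf3a, which binds the 5S ribosomal RNA gene and its product, read 8.48, 8.81 and 8.28 against 7.71 and 7.79 (log2 difference 0.77, SE 0.17, adjusted p = 0.0476), highest in tumour 18. The TFIIIC genes Gtf3c4 and Gtf3c5 rose by 0.36 and 0.20 (adjusted p = 0.0459 and 0.0205), and the call of Gtf3c5 was lost with quantile normalization and with median centring. Gtf3c6, Gtf3c2 and Gtf3c1 differed by 0.63, 0.35 and 0.09 and did not pass (adjusted p = 0.0802, 0.310 and 0.366).

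The tumours were not alike in size of change. Of the 27 called genes, tumour 2 was nearest to the wild-type mean for 20 (74.1%), tumour 16 for 4 and tumour 18 for 3, and tumour 18 was farthest for 18. Over all 2695 called genes tumour 2 was nearest for 55.7%. The median deviation of the 84 genes from the wild-type mean was 0.21, 0.23 and 0.17 in tumours 16, 18 and 2. By group, in the same order, it was 0.68, 0.46 and 0.50 for Polr1, 0.45, 0.54 and 0.45 for Polr2, 0.35, 0.30 and 0.25 for Polr3, 0.10, 0.09 and 0.10 for Mediator, 0.08, 0.01 and 0.09 for Taf, and 0.36, 0.32 and 0.25 for Gtf. Tumour 2 was the lowest for Polr3 and Gtf, level with tumour 16 for Polr2, and not the lowest for Polr1, Mediator or Taf.

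Probe sets of the same gene often differed. Of the 84 genes, 33 had several probe sets, and 13 of these were called. For 4 of the 13 (Gtf2h4, Polr1e, Polr2f and Polr3k) another probe set also passed in the same direction, and for 9 none did. Of the 23 other probe sets of called genes, 18 had the same sign and 0 passed in the opposite direction in limma. In its other probe set Polr1e rose by 0.60 (adjusted p = 0.0381 over probe sets).

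**Figure D4:**
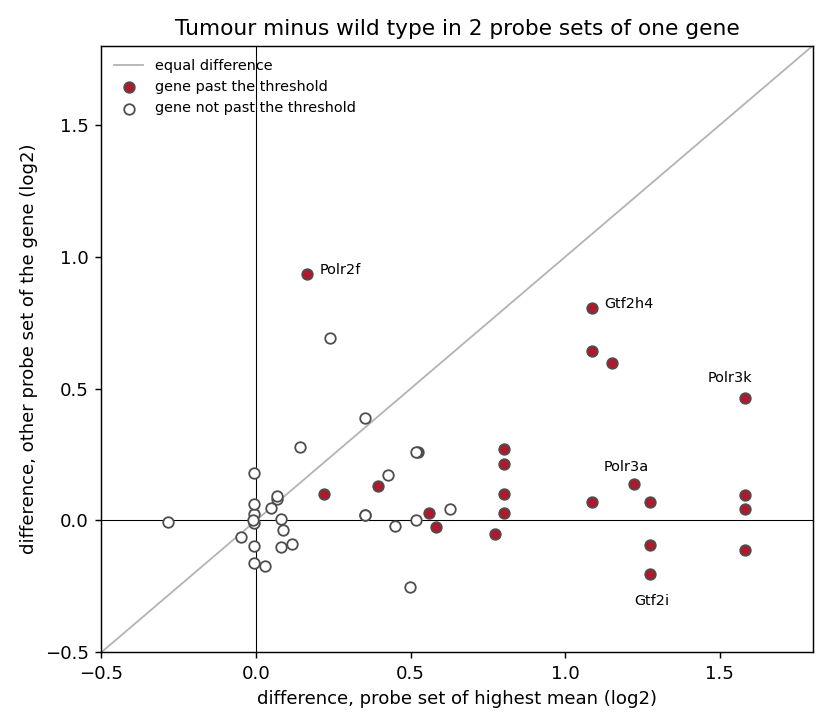
Log2 difference, tumour minus wild type, in the probe set of highest mean (x axis) and in each other probe set of the same gene (y axis), for the 33 genes with several, where filled points are genes past the threshold and the line marks equal differences. Most points lie below the line, Polr2f lies above it (0.17 and 0.93), and the other probe sets of Gtf2i and Polr3a lie near 0.

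Partner genes, and subunits under other symbols than Polr, Med, Taf and Gtf, were counted beside these. Of 40 measured, 10 rose, 2 fell and 28 did not pass (30% called, against 21.7% of all genes). The median difference was 0.16. Tbp, the TATA-binding protein that all 3 systems use, overlapped between groups at 6.80, 6.82 and 6.78 in tumours and 6.67 and 6.82 in wild type (log2 difference 0.06, SE 0.06, adjusted p = 0.504). Among the polymerase I partners and subunits under other symbols 0 of 4 were called in limma, against 21.7% of all genes. Of these 4, 0 were at an unadjusted p under 0.05, where 4505 of all 12393 genes were. Ubtf, which holds ribosomal RNA genes open, differed by -0.0011, and the termination factor gene Ttf1 by -0.12. Snapc2, of the complex that serves small nuclear RNA genes, rose by 1.01 (SE 0.10, adjusted p = 0.00946), alone among 7 genes of TBP, SNAPc and polymerase III. Of 7 TFIIH and Mediator subunits under other symbols, Ccnh and Mnat1, partners of the TFIIH kinase, rose by 0.90 and 0.39 (adjusted p = 0.0338 and 0.0283). Ccnc, the cyclin of the Mediator kinase module, fell by 0.31 (adjusted p = 0.0253), with means under the 25th percentile in both groups. Of 22 elongation and pausing genes, 7 rose and 1 fell (36.4% called, against 21.7% of all genes). The fall was that of Ell (-0.43, adjusted p = 0.0452), an elongation factor gene named after its value was seen. The largest rises were those of Larp7 (0.74, adjusted p = 0.00909), which binds the 7SK RNA, of Supt16 (0.65, 0.0271), a histone chaperone of the FACT complex, and of Cdk9 (0.59, 0.0406), the kinase that releases paused polymerase II. Snapc2 was read on an _x_at probe set, Ccnh on an _s_at one, and Mnat1 and Larp7 on _a_at ones. Other probe sets of partner genes are not given here.

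Promoters are described because 26 of these genes rose in the same tumours. RefSeq promoters of assembly GRCm38.p6 were matched by symbol for 74 of the 84 genes, and the 250 bases before the start site were read on both strands, with the entry listed earliest for a gene. The E-box CACGTG, which Myc binds with its partner Max, was found in 1 of 24 called genes (4.17%), in 11 of 50 genes that did not pass (22.0%) and in 7.74% of 9887 genes of the array. The CCAAT box stood in 37.5% of called genes, 36% of the others and 35.8% of all genes. TATAAA was found in 16.7%, 14% and 9.14%, and GGAAG, the core of ETS sites, in 62.5%, 82.0% and 67.1%. These are matches of letters, and no binding was measured.

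The stretches shown are those of the largest rises with an entry in polymerases III and II (Polr3k and Polr2i), of the called gene with an E-box (Gtf2f1) and of the single fall (Gtf2b), with CCAAT, its reverse ATTGG and CACGTG in capitals. They lie at chr2:181864110-181864359 on the plus strand, chr7:30231824-30232073 on the plus strand, chr17:57011289-57011538 on the minus strand and chr3:142764997-142765246 on the plus strand. Polr3k and Polr2i hold 2 CCAAT boxes each, and Gtf2b holds 1.
Polr3k: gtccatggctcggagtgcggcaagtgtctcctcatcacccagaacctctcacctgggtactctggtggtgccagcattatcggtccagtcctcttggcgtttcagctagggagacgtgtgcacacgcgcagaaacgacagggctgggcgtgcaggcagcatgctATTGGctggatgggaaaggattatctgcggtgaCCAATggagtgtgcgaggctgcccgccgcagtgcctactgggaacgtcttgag
Polr2i: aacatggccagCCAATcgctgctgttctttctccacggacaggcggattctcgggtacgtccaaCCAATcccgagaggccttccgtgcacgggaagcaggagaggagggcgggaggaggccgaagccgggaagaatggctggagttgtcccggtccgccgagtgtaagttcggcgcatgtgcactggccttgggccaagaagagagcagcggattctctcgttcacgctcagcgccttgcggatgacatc
Gtf2f1: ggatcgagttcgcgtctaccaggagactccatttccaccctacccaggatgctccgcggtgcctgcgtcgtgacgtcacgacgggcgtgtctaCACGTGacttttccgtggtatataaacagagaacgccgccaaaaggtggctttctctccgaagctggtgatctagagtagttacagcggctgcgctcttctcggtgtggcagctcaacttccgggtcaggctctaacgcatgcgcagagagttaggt
Gtf2b: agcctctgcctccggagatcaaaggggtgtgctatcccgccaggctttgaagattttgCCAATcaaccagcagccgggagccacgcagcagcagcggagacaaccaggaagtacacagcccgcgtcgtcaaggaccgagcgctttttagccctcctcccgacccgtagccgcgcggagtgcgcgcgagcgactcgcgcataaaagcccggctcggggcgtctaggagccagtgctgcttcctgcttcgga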

How the data were processed

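Per the labels' protocols, RNA of captured cells was purified on a column with DNase and labelled by an Affymetrix small-sample method. The authors deposited log2 signals for 22690 probe sets on the 5 arrays. Per the submitters' processing notes they used affy, an R package, and the summary and normalization methods are not given in the sources used here. Values were used as deposited. After 64 control probe sets were set aside, 20380 of 22626 had 1 gene symbol in GEO's platform annotation (691 several, 1555 none), and each of 12393 genes took its probe set of highest mean. Presence calls were not used here, so low signals may be background. Tumours and wild types were compared in R 4.3.3 by limma 3.58.1 (its lmFit and eBayes steps with group as the only term, 3 residual and 1.23 prior degrees of freedom), two-sided, adjusted by Benjamini-Hochberg over all genes, or over all probe sets where stated. SE is limma's moderated standard error, and "called" means an adjusted p under 0.05. A single value cannot reach an exact permutation p below 0.1 with 5 arrays. The steps were checked on simulated data. Alternatives were quantile normalization, median centring, leaving out genes below the 40th percentile, trend and robust eBayes, the mean of all probe sets, leaving out probe sets with shared targets or tied values, and leaving out each array. Every gene of the rule may be named. Values on each array are given for fixed catalytic and landmark subunits (Polr3b, Med13 and Taf1 were not analysed here) and for the 4 called genes of each group with the largest change. Partner genes named are Tbp and the 3 called genes of a list with the largest change, or its 2 brightest. The members and lists were chosen with earlier results of these data known.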

Additional observations from a re-analysis of the deposited data

How the results depend on the processing

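Counts under alternatives with the same arrays that differed by more than 1.5 times were 5 called Mediator genes (3 as reported) under quantile normalization and when a gene's probe sets were averaged, 2 genes lower (1 as reported) with median centring, and 1 called Polr1 gene (2 as reported) with dim genes left out. Leaving out probe sets with shared or multiple transcripts gave 10 genes higher (26 as reported), and 1, 3, 0, 1 and 4 called Polr1, Polr2, Polr3, Taf and Gtf genes (2, 6, 4, 4 and 8 as reported), over 71 measured genes. With _s_at and _x_at alone left out, chosen after seeing the data, 19 of 83 genes were higher and 1 lower (24.1% called, against 20.3% of all genes), with 1 called Polr1 gene and 2 Taf genes. Polr1c turned to -0.023 in both settings and Polr3k to -0.11 in the former, since another probe set of the gene was then used. Leaving out each array gave 0 to 26 genes higher and 0 to 2 lower, and 0 to 2, 0 to 6, 0 to 3, 0 to 3, 0 to 5 and 0 to 7 called Polr1, Polr2, Polr3, Mediator, Taf and Gtf genes, with 33 to 44 of the 84 at an unadjusted p under 0.05. With tied probe sets also left out, chosen after seeing the data, 9, 18, 31, 8 and 7 of 77 genes were higher (6.85%, 8.27%, 14.6%, 5.42% and 4.98% of all genes) and 0 to 3 lower, with 0 to 3, 2 to 6, 0 to 4, 1 to 4, 2 to 6 and 2 to 8 by group. A lone wild type was assumed to vary like the tumours. With tied probe sets kept and tumour 16, 18 or 2 left out, 37, 34 and 44 of 84 had an unadjusted p under 0.05. In the same limma fits, so did 3517, 3633 and 4369 of all 12393 genes. Of the 27 called genes, 5, 15, 4 and 3 kept their call in 0, 1, 2 and 3 of the 5 fits without 1 array, and the 27 kept their sign. No paired analysis was possible because the tumour and wild-type titles share no number. The number of arrays limits the precision, and signal over background was not analysed here.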

Other observations

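The share of called genes differed with the ending of the probe set's name, which marks probes that match several transcripts of a gene (_a_at), transcripts of several genes (_s_at) or partly other sequences (_x_at). Over all genes, 19.1% of 9065 with a plain ending were called, 26.2% of 2107 with _a_at, 31.2% of 690 with _s_at and 37.3% of 531 with _x_at. Among genes of _x_at probe sets 158 were higher and 40 lower, with a median log2 difference of 0.19, against 809 higher and 921 lower and a median of 0.00 for plain endings. Of the 84 transcription machinery genes, 59 had a plain ending, of which 12 (20.3%) were called, and 25 had another, of which 15 (60.0%) were called. The median difference was 0.14 over the 59 and 0.50 over the 25. The 7 genes on _s_at or _x_at probe sets (Polr1c, Polr2e, Polr3d and Taf1c, and Gtf2h4, Polr1e and Taf1d) were called higher. The part of these probe sets in the counts beyond leaving them out was not tested.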
